A study of Caenorhabditis elegans with 2 samples.

Results

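The genes described here encode translation factors and aminoacyl-tRNA synthetases of Caenorhabditis elegans, and the question was where the transcription factor ZAG-1 was found near them. They were chosen by name alone from the protein-coding genes of the WBcel235 annotation: names starting with eif-, ife- or eef-, and names made of 1 or 2 letters followed by ars-1 or ars-2. The rule, chosen with earlier results of these data known, found 67 of 19973 nuclear protein-coding genes. They fall into 25 initiation factor genes (eif-), 5 cap-binding protein genes (ife-), 6 elongation factor genes (eef-) and 31 synthetase genes, 20 with a name ending in 1 and 11 with a name ending in 2.

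The series is a ChIP-seq experiment, in which DNA bound to a protein is precipitated with an antibody and sequenced. It holds 1 group of 2 biological replicates of whole L3 larvae, mixed in sex, from strain OP83, whose genotype is unc-119(ed3) III; wgIs83. The insertion carries eGFP-tagged zag-1, and the labels name zag-1 as the antibody target. There is no second genotype, stage or treatment, so binding could be described but not compared between conditions. The sequence that drives the transgene is not given in the sources used here. Because whole animals were used, a region cannot be given to a cell type. With 1 group no test between conditions exists, and no p-value is given.

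Translation starts when initiation factors bring the small ribosomal subunit, the initiator tRNA and the capped mRNA together, and eIF3, a complex of many subunits, holds much of this assembly. Elongation factors then deliver aminoacyl-tRNAs to the ribosome and move it along the mRNA, and the synthetases charge each tRNA with its amino acid. These genes are used by practically every cell, whereas ZAG-1, a zinc finger homeodomain protein of the ZEB family, is known for its role in the differentiation of neurons.

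The authors' lists give each region a signal score, which ranks regions within a list and is not scaled between lists. The optimal set held 339 nuclear regions, with scores of 33.0 and above, chosen by the authors for reproducibility, and the whole set equals the highest regions of a joint list of 10005 regions made from both replicates. The lists of replicate 1 (30000 regions) and replicate 2 (26202 regions) and the joint list deliberately include background. Read depth is unknown, since the files hold no reads, and intervals on shares below are exact (Clopper-Pearson) 95% intervals that cover counting only. Each region was given to the gene whose protein-coding transcript start was nearest to its summit, within 5000 bp. The tagged gene zag-1 had 0 regions in all 4 lists, so it gave no check of the experiment.

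High-scoring regions were given to few of these genes, as they were to few of all genes. An optimal region was given to 2 of the 67 (2.99%, interval 0.364 to 10.4), eif-3.C and eef-1A.2, against 303 (1.52%) of all genes. A joint-list region was given to 26 (38.8%, interval 27.1 to 51.5), against 30.7% of all genes. Both all-gene shares lie within the intervals of the members at this distance limit; with a limit of 1000 bp the joint-list shares are farther apart, as given below. Cytosolic ribosomal protein genes, which work beside these factors, had an optimal region at 13 of 81 (16.0%, interval 8.83 to 25.9), and mitochondrial ribosomal protein genes at 2 of 70 (2.86%, interval 0.348 to 9.94). The lower bound for the cytosolic ribosomal genes is below the upper bound for the translation genes, and the difference was not tested.

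Among the 1000 highest joint-list regions, 6 genes were represented (8.96%, interval 3.36 to 18.5), against 4.14% of all genes. All 6 encode factors: eif-3.C, eif-3.B and eif-3.J of the eIF3 complex, and eef-1A.2, eef-1B.1 and eef-2 of elongation. No synthetase gene was given one of these regions, 0 of 31, with an upper bound of 11.2%. This rests on the rule of assignment: a region at rank 636 lay inside yars-1 but 6103 bp from its start, and another at rank 187 lay 61 bp from the ears-2 start and nearer to its neighbour. Of the 26 genes with a joint-list region, 14 (53.8%) had their highest one below rank 5000, where the same held for 43.0% of the 6137 genes with such a region.

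**Figure D1:**
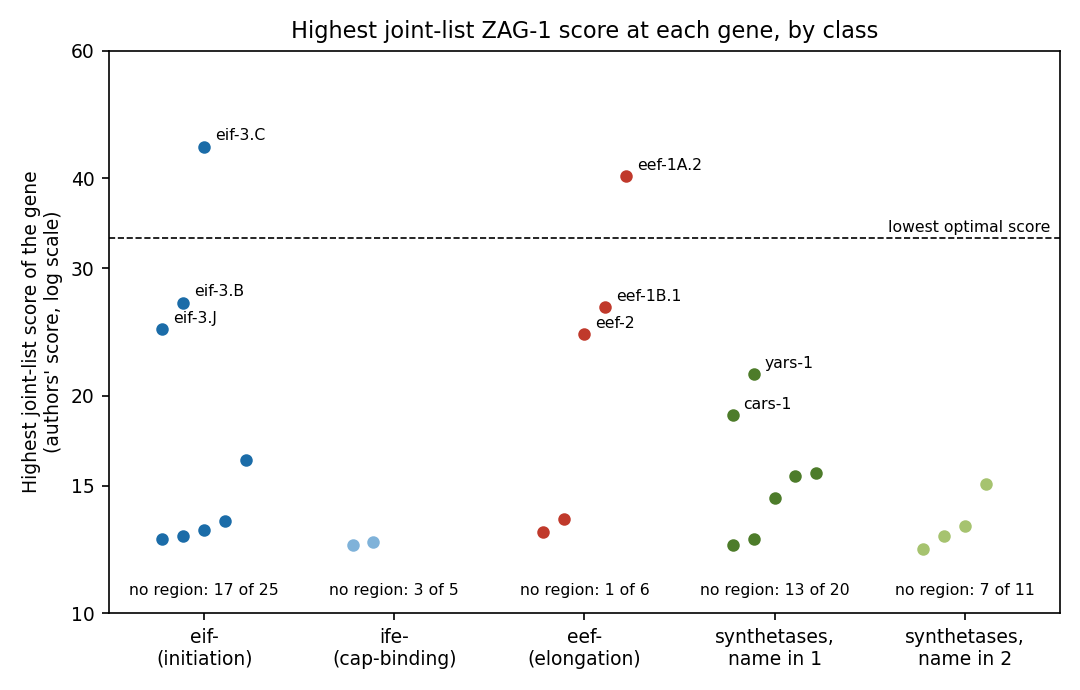
Highest joint-list score of each gene (vertical axis, log scale), by class; each point is a gene, and the numbers at the bottom count genes with no joint-list region. eif-3.C and eef-1A.2 lie above the lowest optimal score of 33.0 (dashed), and no synthetase gene was given a region above 21.4.

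Within the initiation factors, the eIF3 genes gave the highest values. The region of eif-3.C, which encodes a core subunit of eIF3, lay at chrI:9979703-9980086 in ce11, the build that matches WBcel235. Its score was 20.8 in replicate 1 (rank 135), 22.5 in replicate 2 (rank 322) and 44.2 in the joint list (rank 179). The summit was intergenic, 233 bp upstream of the start in replicate 1 and in the joint list and 262 bp upstream in replicate 2. The eif-3.C gene was the single member within the highest regions of both replicate lists, when each was taken to the size of the optimal set. The nearest other gene start, of sys-1, was 3174 bp away.

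Another pair of eIF3 genes lay below the optimal set, outside which the highest score was 32.9. The eif-3.B gene, for another core subunit, scored 10.04 in replicate 1, 15.1 in replicate 2 and 26.9 in the joint list, at rank 591 and 196 bp upstream of the start. The loosely attached subunit eIF3j is encoded by eif-3.J, which scored 5.92 in replicate 1 and 15.9 in replicate 2, and 24.7 in the joint list at rank 746. Its summit was 944 bp upstream in all of these lists, within an untranslated exon of slc-25A46. The replicates placed that region far apart in rank, at 10898 and 914, so it was high in replicate 2 and ordinary in replicate 1.

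The other eIF3 genes were low or had no region. Of 11 eif-3 genes, 5 had a joint-list region (45.5%, interval 16.7 to 76.6, against 30.7% of all genes), the remaining pair being eif-3.I (score 13.4, 101 bp upstream) and eif-3.H (12.7, 116 bp upstream). Each of these was matched within 100 bp in a single replicate, eif-3.I in replicate 1 with a score of 9.02 and eif-3.H in replicate 2 with 8.23. The genes eif-3.D and eif-3.L had no region in any list (2 of 11, against 21.8% of all genes), so regions were not found at every gene of the complex.

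eIF2, the GTPase that carries the initiator tRNA, and its exchange factor eIF2B gave low values. None of eif-2alpha, eif-2beta and eif-2gamma had a joint-list region. Of 5 eif-2B genes, eif-2Bgamma scored 16.3 in the joint list at rank 3314, with the summit 1017 bp upstream inside an intron of C15F1.5. The highest region given to it in replicate 1 was another, 719 bp upstream, with a score of 14.0 at rank 405, and replicate 2 gave 10.1 at rank 5469. Both eif-2Bgamma regions lay within 500 bp of a tRNA, rRNA, snRNA or snoRNA gene. The eif-2Bdelta gene scored 12.8, and eif-2A, for a factor separate from eIF2, scored 13.0. No region in any list was given to eif-2Balpha or eif-2Bbeta (2 of 5, against 21.8% of all genes).

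The cap-binding proteins, worm relatives of eIF4E that recognise the mRNA cap, had low values in the joint list. An optimal region was given to 0 of 5, against 1.52% of all genes, and a joint-list region to 2 of 5, against 30.7%. These were ife-5 (score 12.6) and ife-2 (12.4), close to the lowest joint-list score of 12.2. The ife-2 region was matched by replicate 2 alone, with a score of 10.3 at rank 5167, above that list's median score of 7.72, and the ife-5 region by neither replicate. The ife-4 gene had a region in replicate 2 alone, with a score of 8.62 at rank 9443. The genes ife-1 and ife-3 had no region in any list (2 of 5, against 21.8% of all genes).

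Most elongation factor genes had a joint-list region, 5 of 6 (83.3%, interval 35.9 to 99.6), against 30.7% of all genes. All 6 had a region in both replicate lists, against 44.8% of all genes. The replicate summits lay within 100 bp of each other at 4 of the 6 (66.7%), against 15.6% of all genes. With 6 genes these shares are imprecise. The strongest was eef-1A.2, for eEF1A, which delivers aminoacyl-tRNA to the ribosome. Its score was 14.0 in replicate 1 (rank 402), 28.8 in replicate 2 (rank 197) and 40.3 in the joint list (rank 207). The summit lay 349 bp upstream in replicate 1, 422 bp in replicate 2 and 338 bp in the joint list, so the replicate summits were farther apart here than at the initiation factor gene of similar score. A lower joint-list region, with a score of 17.0, lay 2519 bp downstream of the same start, beyond the end of the gene.

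Among the genes for eEF1B, the complex that recharges eEF1A with GTP, eef-1B.1 came next after eef-1A.2 in joint-list score. The region of eef-1B.1 scored 5.08 in replicate 1 (rank 16003), 20.3 in replicate 2 (rank 436) and 26.5 in the joint list (rank 616). The 3 summits lay 24, 23 and 23 bp upstream of the start, so the position was shared and the rank was not. By contrast eef-1B.2 scored 12.9, matched by replicate 1 alone, and eef-1G scored 13.5 with summits in both replicates.

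Promoter sequence is shown for the elongation gene in the optimal set, for eef-1B.1, for the promoter shared by ears-2 and uncp-18 described below, and for iff-2, a related factor gene with a higher score. The last 3 were added after their values were known. Each is written 5′ to 3′ on the strand of the named gene, in ce11, and no annotated protein-coding exon overlaps the windows. Capitals mark the word GAGAGA, the word CGTCTC, the word GACGCA or the word CACCTG, on either strand. Most were taken up because of earlier results on the same regions, and the last because ZEB proteins are known to bind it. The first window is 100 bp either side of the joint-list summit, chrX:7823216-7823416 on the plus strand:
eef-1A.2: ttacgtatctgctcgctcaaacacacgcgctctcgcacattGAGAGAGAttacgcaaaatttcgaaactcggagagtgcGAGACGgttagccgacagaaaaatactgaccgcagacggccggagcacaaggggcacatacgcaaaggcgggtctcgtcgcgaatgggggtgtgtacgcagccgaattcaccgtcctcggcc
The 200 bp upstream of eef-1B.1 are chrIII:7973387-7973586 on the minus strand:
eef-1B.1: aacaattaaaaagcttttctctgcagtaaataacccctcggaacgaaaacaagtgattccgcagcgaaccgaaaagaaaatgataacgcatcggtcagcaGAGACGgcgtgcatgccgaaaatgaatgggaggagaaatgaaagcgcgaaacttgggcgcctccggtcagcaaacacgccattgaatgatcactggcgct
The 91 bp between the starts of ears-2 and uncp-18 are chrIV:390469-390559, written on the minus strand:
ears-2: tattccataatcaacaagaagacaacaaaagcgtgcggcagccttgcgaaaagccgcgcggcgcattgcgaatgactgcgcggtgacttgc
The 200 bp upstream of iff-2 are chrII:8561368-8561567 on the minus strand:
iff-2: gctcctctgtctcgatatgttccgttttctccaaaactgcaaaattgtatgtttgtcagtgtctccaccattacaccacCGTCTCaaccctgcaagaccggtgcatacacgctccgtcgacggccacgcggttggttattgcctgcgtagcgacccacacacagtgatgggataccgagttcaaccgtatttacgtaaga

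CGTCTC, read as GAGACG on the other strand, stood in the eef-1A.2, eef-1B.1 and iff-2 windows, and the eef-1A.2 window also held overlapping copies of GAGAGA. None of the 4 words stood within 50 bp of the eef-1B.1 joint-list summit. A further window, 100 bp either side of the joint-list summit of eif-3.B, is not shown and also held none of them. The ears-2 window held none of the 4 words, but it is shorter, at 91 bp. Among 91 bp windows at the optimal summits 36.3% held GAGAGA, 23.6% CGTCTC, 20.4% GACGCA and 2.06% CACCTG. For scale, among 201 bp windows at the 339 nuclear optimal summits 37.8% held CGTCTC, 54.3% held GAGAGA, 31.9% held GACGCA and 2.36% held CACCTG. Among the 200 bp upstream of every gene the shares were 7.56% for CGTCTC, 16.3% for GAGAGA, 6.08% for GACGCA and 5.82% for CACCTG. Upstream of the 67 members, 2 windows held CGTCTC (2.99%), 9 held GAGAGA (13.4%), 2 held GACGCA (2.99%) and 0 held CACCTG. A match is a string of letters and is not by itself a binding site.

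Shorter windows, 50 bp either side of the summit, were searched as well. Among the 317 optimal regions given to a gene, 38.5% held GAGAGA there, against 5.68% of windows 500 bp to the left. Of the 2 member optimal regions 0 did; the copy near eef-1A.2 lay within 100 bp of the joint-list summit, and within 50 bp of the replicate 1 summit and of the replicate 2 summit. At the 38 joint-list regions of the members it was found at 2 (5.26%), against 9.02% of the 9209 joint-list regions given to a gene and 3 (7.89%) of windows 500 bp to the left of the same summits. CACCTG was found at 0 of the 38, against 1.97% of the 9209. Beside the eif-3.C summit stood GACGCA, which 22.7% of the 317 optimal regions held within the same distance.

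The paralogous pair of eEF1A genes shows how much the assignment to the nearest start matters. Their coding sequences are each 1389 bp long and 94.0% identical. By the nearest start, eef-1A.1 received no joint-list region, and its replicate regions were low. The scores were 5.70 in replicate 1 (rank 12081, 641 bp downstream of the start) and 6.45 in replicate 2 (rank 20468, 61 bp upstream). However, a joint-list region with a score of 26.0 at rank 657 had its summit 389 bp upstream of eef-1A.1 and was given to rfc-4, which starts 541 bp from eef-1A.1 on the opposite strand. In the replicates that region scored 12.6 (rank 598) and 10.3 (rank 5125). The lists therefore held a region upstream of both eEF1A genes, with joint-list scores of 26.0 and 40.3.

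**Figure D2:**
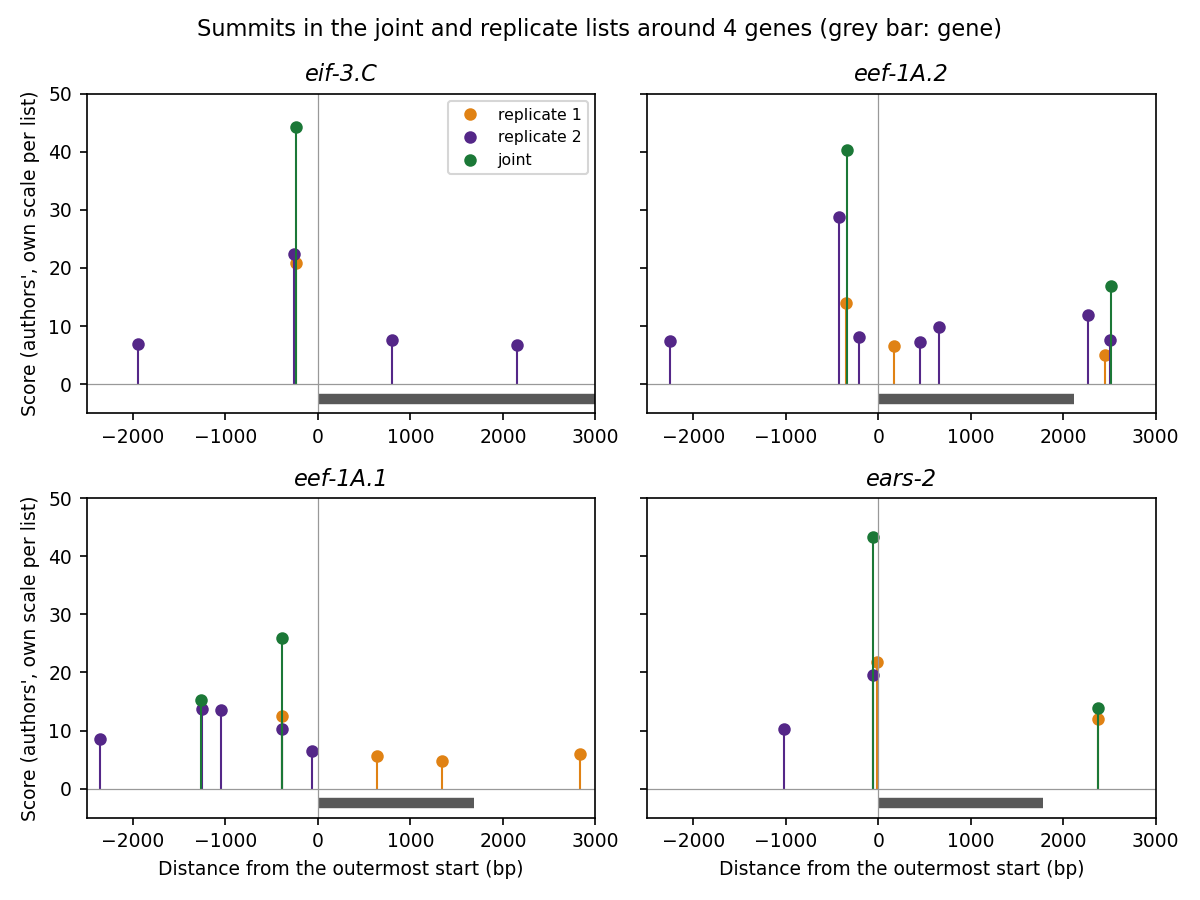
Summits of the joint list and of each replicate (points, with stems to 0) by distance from the outermost start of 4 genes; the vertical axis is the authors' score, on its own scale in each list, and the grey bar is the gene, cut at the edge of the panel. The upstream region of eef-1A.1, with a joint-list score of 26.0, was given to rfc-4, and that of ears-2, with 43.3, to uncp-18.

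The ribosomal translocase eEF2 is encoded by eef-2. Its region scored 12.6 in replicate 1 (rank 595), 10.97 in replicate 2 (rank 4013) and 24.3 in the joint list (rank 782). The joint-list and replicate 1 summits coincided, in an untranslated exon of the gene 24 bp downstream of its outermost start, and were 22 bp upstream of a further annotated start. The replicate 2 summit lay 1 bp upstream of the outermost start. Here replicate 1 held the higher rank, opposite to eef-1B.1 and eif-3.J.

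For the 6 genes of the joint top 1000, the authors' −log10 q-values followed the scores. They were 1.38 for eif-3.C and eef-1A.2, a value that 491 joint-list regions share, 1.33 for eif-3.B and 1.28 for eef-1B.1. Lower values were given for eif-3.J, at 1.00, and eef-2, at 0.951.

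Joint-list regions were given to 11 of 31 synthetase genes (35.5%, interval 19.2 to 54.6), against 30.7% of all genes, and an optimal region to 0, against 1.52%. The medians of the joint-list scores were 14.8 over their 22 regions and 14.7 over the 9209 regions of all genes. Without yars-1, which was given 8 of the 22, the synthetase median was 12.8 over 14 regions. Gene names ending in 1 and in 2 had joint-list regions at 7 of 20 (35.0%) and 4 of 11 (36.4%). The ending is used here as a label, not as a statement on where the enzyme works.

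The highest joint-list score given to a synthetase gene was that of yars-1, a tyrosyl-tRNA synthetase gene, which had many regions inside introns. The gene was given 8 joint-list regions with scores of 14.0 to 21.4, 4 in its own introns and 4 in introns of Y105E8A.20, and no other member had more than 2. As many or more were given to 25 of the 6137 genes with a joint-list region. The 101 bp around these summits held 19.8% to 24.8% G and C, and at least 89.6% of each region is marked as repeat or low-complexity in the reference. The highest, 4275 bp downstream of the start, was matched within 100 bp in replicate 2 alone, with a score of 6.05. A replicate 1 region with its summit at 4430 bp overlapped it, with a score of 12.2 at rank 680. In replicate 1 the highest yars-1 region scored 13.6 at rank 456, and in replicate 2 12.7 at rank 2219, at different positions. The region at 4275 bp was also the member region farthest inside the 5000 bp limit. Beyond the limit, and given to no gene, 2 more joint-list summits lay in introns of yars-1. At 6103 bp from the start the score was 10.3 in replicate 1 (rank 1405), 13.4 in replicate 2 (rank 1741) and 26.3 in the joint list (rank 636), higher than any region given to a synthetase. At 9028 bp the joint-list score was 19.0. The nearest member region outside the limit was at 6078 bp from wars-1, with a score of 12.8.

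Below yars-1, cars-1, for cysteinyl-tRNA synthetase, scored 18.8 at rank 1841 in its own coding exon, with no summit within 100 bp in either replicate. The wars-1 gene scored 15.6, kars-1 scored 15.5 and aars-1 scored 14.4. Of these, kars-1 was found in both replicates within 100 bp, 444 bp upstream, with a score of 3.85 in replicate 1 (rank 27127) and 10.05 in replicate 2 (rank 5577), and aars-1 was found in both inside its coding sequence. Among names ending in 2, pars-2 scored 15.1, rars-2 13.2, fars-2 12.8 and dars-2 12.3. Of their 6 regions 0 were found in both replicates (interval 0 to 45.9), against 35.6% of the 9209 joint-list regions given to a gene.

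A single synthetase gene sat beside an optimal region. The glutamyl-tRNA synthetase gene ears-2 starts 92 bp from uncp-18 on the opposite strand. A region at chrIV:390337-390720 covered both starts and had its summit between them. Its score was 21.7 in replicate 1 (rank 125), 19.6 in replicate 2 (rank 481) and 43.3 in the joint list (rank 187). The replicate 1 summit was 16 bp from the ears-2 start, while those of replicate 2 and the joint list were 61 bp from it and 31 bp from that of uncp-18. So replicate 1 gave the region to ears-2, and replicate 2 and the optimal set gave it to uncp-18; which of them the region belongs to cannot be told apart by position.

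Such cases touched 6 members. For eif-2D, eif-3.F, eef-1A.1, fars-1, qars-1 and ears-2, the highest joint-list region within 1000 bp of their own start was given to a neighbour. When a region counted for every gene with a start within 1000 bp, 28 of the 67 had a joint-list region (41.8%, interval 29.8 to 54.5), against 22.0% of all genes. With the nearest start and the same 1000 bp, 22 did (32.8%, interval 21.8 to 45.4), against 18.8%. Both all-gene shares lie below these intervals, unlike at 5000 bp, and the difference was not tested. Restricting the distance therefore lowered the share of all genes more than that of the members.

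The regions of factors and synthetases lay at different places. Of the 16 joint-list regions of the 36 factor genes, 14 (87.5%, interval 61.7 to 98.4) had their summit in the promoter, which here runs from 1000 bp before the start to 100 bp after it. Of the 22 regions of the synthetase genes 4 did (18.2%, interval 5.19 to 40.3), and without yars-1 it was 3 of 14 (21.4%, interval 4.66 to 50.8). Over all genes the share was 31.6%. The intervals of factors and synthetases do not overlap, but regions of a gene are not independent and the difference was not tested. By class, the promoter held 7 of 8 eif- regions, 2 of 2 ife- regions, 5 of 6 eef- regions, 3 of 16 regions of synthetases with names in 1 and 1 of 6 with names in 2.

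The distances, base composition and gene lengths differed with it. The median distance from summit to start was 214.5 bp for factors, 1288 bp for synthetases (975 bp without yars-1) and 1053 bp for all genes. Introns held 2 of the 16 factor regions and 13 of the 22 synthetase regions, of which 8 are those of yars-1; without that gene it was 5 of 14 (35.7%), against 36.7% over all genes. The mean share of G and C within 50 bp of the summit was 41.3% for factors, 28.3% for synthetases (31.9% without yars-1) and 35.2% for the joint-list regions given to any gene. Synthetase genes are longer, with a median of 3605 bp against 2178 bp for factors, and the genome nearest to their starts is longer too, with a median of 3555 bp against 2369 bp. The part of gene length in the difference of position was not tested.

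**Figure D3:**
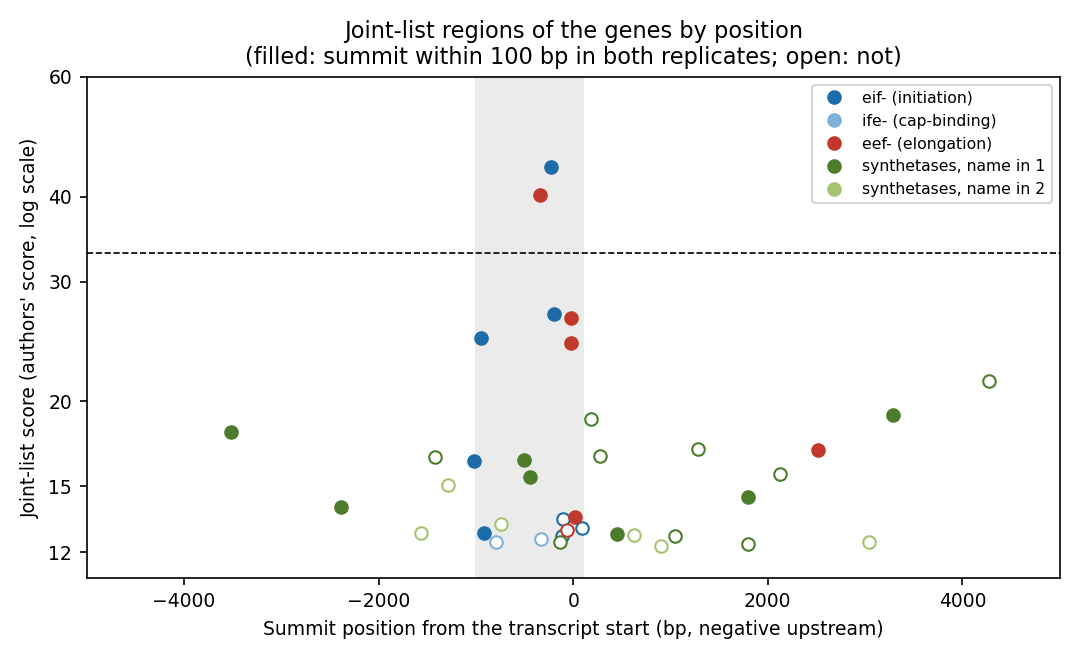
Position of the 38 joint-list summits from the transcript start (horizontal axis, negative upstream) and joint-list score (vertical axis, log scale); colours are classes, filled points were found in both replicates, grey is the promoter window and the dashed line is the lowest optimal score. The 14 factor regions in the window include the 6 highest scores, while the synthetase regions spread on both sides.

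Per length of genome nearest to the gene, the members had 16.5 joint-list regions per 100 kb and 13.6 without yars-1, against 10.1 for all genes and 32.7 for cytosolic ribosomal protein genes. The elongation factors had 30.9, the initiation factors 12.01 and the cap-binding proteins 11.5. Synthetases with names in 1 had 21.6, or 12.3 without yars-1, and those with names in 2 had 11.4. The length nearest to a member was shorter than usual, with a median of 2838 bp against 3774 bp.

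Replicate lists that include background held most genes. A region was given to 42 members in replicate 1 (62.7%, against 63.8% of all genes) and to 39 in replicate 2 (58.2%, against 59.1%). Both lists held 28 members (41.8%, against 44.8%), but a summit of replicate 1 lay within 100 bp of a replicate 2 summit of the same gene at 12 (17.9%, against 15.6%). Joint-list regions found in both replicates were likewise given to 12 members (17.9%, against 13.6%), 9 of them factors and 3 synthetases (yars-1, kars-1 and aars-1). A region in both lists therefore lay at the same place for 12 of the 28.

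The highest regions of each replicate, taken to the size of the optimal set, gave 2 members each. In replicate 1 these were ears-2 and eif-3.C, against 1.48% of all genes, and in replicate 2 eef-1A.2 and eif-3.C, against 1.47%. The ranks come from lists of different length and are not a measure of change.

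**Figure D4:**
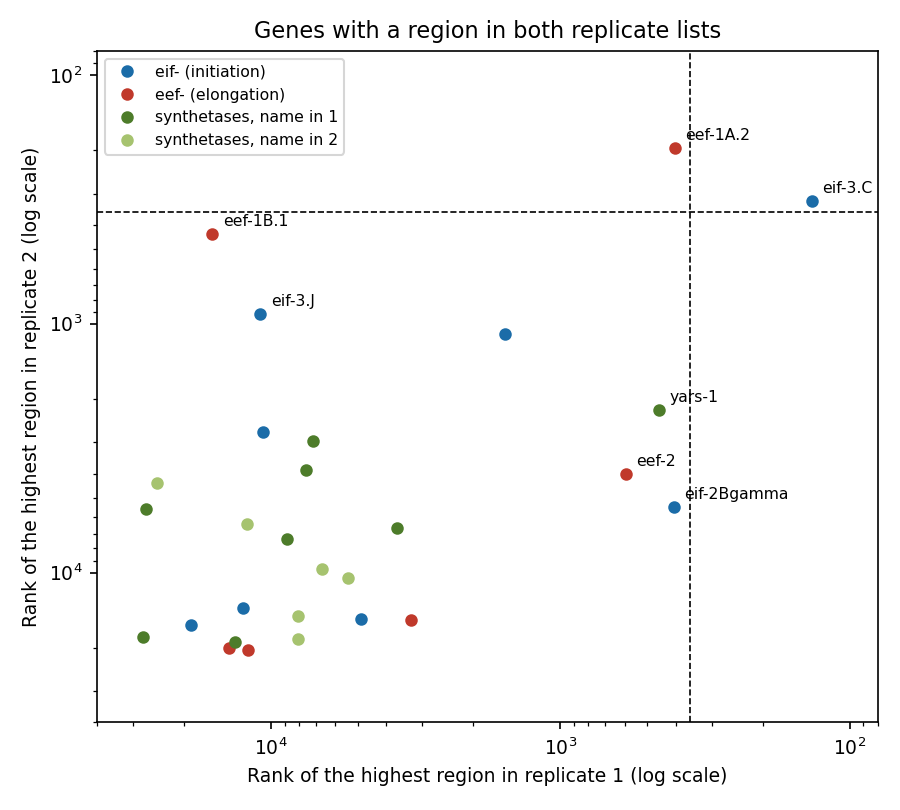
Rank of the highest region of each gene in replicate 1 (horizontal) and replicate 2 (vertical), log scales with the highest ranks at the right and top, for the 28 genes with a region in both lists; dashed lines mark the rank equal to the size of the optimal set. eif-3.C is inside both limits, eef-1A.2 inside that of replicate 2, and eef-1B.1 and eif-3.J rank high in replicate 2 alone.

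No region in any of the 4 lists was given to 14 members (20.9%, interval 11.9 to 32.6), against 21.8% of all genes. They include 9 of the 25 eif- genes: eif-1 and eif-1.A, whose products act in start codon selection, eif-2Balpha, eif-2Bbeta, eif-2D, eif-3.D, eif-3.L, eif-4A3, for a helicase of the exon junction complex, and eif-6, for a factor of the large ribosomal subunit. The others are ife-1, ife-3, dars-1, sars-1 and iars-2. For eif-2D the assignment decided this, since a region with a joint-list score of 13.2 lay within 1000 bp of its start and was given to ndub-5.

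Genes of the pathway that the name rule leaves out gave similar shares at the 5000 bp limit, but not with 1000 bp. With the nearest start within 1000 bp, 3 of 28 had a joint-list region (10.7%, interval 2.27 to 28.2). This compares with 18.8% of all genes and 32.8% of the members, and was not tested. The shares that follow are at 5000 bp. Of 29 such names 28 were in the annotation, and 1 of 28 had an optimal region (3.57%, interval 0.0904 to 18.3, against 1.52% of all genes) and 8 a joint-list region (28.6%, interval 13.2 to 48.7, against 30.7%). The optimal one was iff-2, for eIF5A, which helps the ribosome through difficult peptide bonds. It scored 19.4 in replicate 1 (rank 155), 47.4 in replicate 2 (rank 65) and 66.1 in the joint list (rank 76), with the joint summit 58 bp upstream of a start. That is above every member. The other joint-list regions were at larp-1, for an RNA-binding protein (26.5), pab-2, for a poly(A)-binding protein (23.4), pek-1, for an eIF2 kinase (17.0), daf-15, for the worm Raptor (16.4), efk-1, for the eEF2 kinase (14.98), tufm-1 (13.3) and ncbp-2 (12.6). The gene let-363, for the worm TOR kinase, had no region in any list.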

How the data were processed

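ZAG-1 ChIP-seq regions of 2 biological replicates were taken from 4 ce11 lists. Per the notes deposited with the lists, each replicate list was made from its own alignment and a control, the joint list from both alignments, and the optimal set from these by the irreproducible discovery rate. Which aligner, caller and threshold were used is not given in the sources used here. Deposited values are a score, a −log10 q-value and a summit offset for each region. The authors set the score against the control, and it was used within a list only. Depth is unknown. The ce10 lists were not used.

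Genes and starts came from Ensembl release 115 on WBcel235. Mitochondrial regions were left out. Regions within 5000 bp of a protein-coding start went to the nearest; summits within 100 bp counted as the same region. Base composition and words came from the RefSeq copy of the assembly. Coordinates are 1-based. Planted regions were tested on simulated data: all 5996 were given the gene that a full search gave. Of these, 5984 (99.8%) were given back to the gene they were planted at. They were planted only at or close to a start, so recovery at larger distances was not measured. Python 3.11.15, NumPy 2.4.6, SciPy 1.17.1 and matplotlib 3.10.9 were used.

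The members, the gene lists and the words were chosen with earlier results of these data known. No test was made: there is 1 group. Named are members with an optimal region, up to 5 further members per class by joint-list score, members with no region, members among the highest regions of a replicate, as many as the optimal set holds, and listed pathway genes with an optimal region; other genes, and values without yars-1, were added after the data were seen. Alternatives changed the distance limit, the assignment, the number of regions, the match distance, the word window and the replicate used.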

Additional observations from a re-analysis of the deposited data

How the results depend on the processing

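The count of 2 members with an optimal region held with limits of 1000 and 2000 bp, with distance from the region edge, with regions found in both replicates, and with as many highest regions of a single replicate (2 to 2). Over all 19973 genes, 303 had an optimal region at 5000 bp, 252 with 2000 bp and 209 with 1000 bp. The member count was 3 (4.48%) when every start within 1000 bp counted, against 1.45% of all genes. It was 0 among the 178 optimal regions of highest score, which were given to 147 of all genes. The 26 members with a joint-list region (38.8%, against 30.7% of all genes) were 22 with 1000 bp (32.8% against 18.8%), 25 with 2000 bp (37.3% against 25.4%), 28 with every start within 1000 bp (41.8% against 22.0%), 6 among the highest 1000 regions (8.96% against 4.14%) and 12 among the highest 5000 (17.9% against 17.5%). The authors chose the optimal set for reproducibility, so agreement between replicates is not a separate result about the members. Of its 317 regions given to a gene, 281 (88.6%) were found in both replicates within 100 bp. Of the 2 member optimal regions 1 was found in both replicates with 50 bp, since the replicate 2 summit of eef-1A.2 is 84 bp away. Both were with 200 bp, any overlap or the highest 5000 regions. Their median distance of 285.5 bp ranged from 124.5 to 342 bp in single replicates, where ears-2 replaced eef-1A.2 in replicate 1; it could not be given for the 178 highest regions, which held no member. GAGAGA was at 0% of member optimal summits within 25 and 50 bp, at 1 of 2 within 100 bp and at 5.26% of joint-list regions. Replicate 1 had 2 members among as many highest regions as the optimal set holds, 6 among 1000 (8.96% against 4.07% of all genes) and 12 among 5000 (17.9% against 18.1%), and replicate 2 had 2, 4 (5.97% against 4.13%) and 14 (20.9% against 17.7%).

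With 2 optimal regions no share of members is precise. Depth is unknown, so absence of a region is not absence of binding. With 1 group, no pairing across groups exists.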
